A study of Homo sapiens with 12 samples.

Results

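Transcript levels of 29 genes of cholesterol synthesis, uptake and trafficking were described in human macrophages derived from THP-1 cells, an established monocytic leukaemia line. The 29 genes were chosen by symbol, with earlier results of these data known, and found as rows of a table of 58907 genes, and all 29 passed the filter on low counts that left 15252 genes for testing. They cover 4 roles: 8 genes of acetyl-CoA condensation and the mevalonate steps, 12 genes from squalene to cholesterol, 4 genes of SREBP2 regulation, and 5 genes of sterol transfer, lysosomal release and esterification. The cells of every group carried the construct that the labels write as PPRE-eGEP, and all had spent 48 h in 25 ng/mL phorbol 12-myristate 13-acetate, an agent that turns THP-1 cells into macrophage-like cells, followed by 24 h of rest. M1 cells then received lipopolysaccharide at 100 ng/mL with interferon gamma at 20 ng/mL, and M2 cells received interleukin 4 and interleukin 13 at 20 ng/mL each, for 24 h. During polarization the cells also received MCHP at 100 µM or the solvent DMSO, which gave 4 groups of 3 libraries. MCHP is not expanded in the labels, and nothing in them says whether the 3 libraries of a group came from separate cultures, so the p-values below measure the spread between these libraries, which may be technical. All cells came from 1 cell line, and no unpolarized group was analysed here.

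Cells obtain cholesterol by building it from acetyl-CoA through mevalonate, squalene and lanosterol, or by taking up lipoproteins whose cholesteryl esters are split in the lysosome. The membrane protein SCAP escorts the transcription factor SREBP2 from the endoplasmic reticulum to the Golgi when sterols are low, the INSIG proteins hold the pair back when sterols are high, and processed SREBP2 raises transcription of the synthesis genes. In macrophages, lysosomal acid lipase and the NPC proteins release lipoprotein cholesterol, and sterol O-acyltransferase stores the surplus as the ester droplets known from foam cells.

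Total counts per library ranged from 14352202 to 16871233. Levels are given as CPM (each gene's counts relative to the library's total) scaled with TMM factors. The summed level of 8 macrophage and monocyte markers was 1459.7 to 1727 CPM over the 12 libraries, with ITGAM, CSF1R and SPI1 well expressed, but CD68 and MSR1 averaged under 0.5 CPM in each group and MRC1 was at or near 0. CXCL9 and GBP5 were high in M1 (107 ± 8.15 and 597 ± 7.07 CPM in DMSO, SD, n = 3) and at or near 0 in M2, while CCL22 was 742 ± 97.7 CPM in M2 and 12.3 ± 1.37 in M1. Of 8 tested markers of the M1 state, 7 were higher in M1 in DMSO and CCL5 was lower, and the list summed to 13519.5 to 14309.8 CPM in M1 DMSO and 9589 to 9956 in M2 DMSO. Of 7 tested markers of the M2 state, 5 were lower in M1 in DMSO, CCL13 was not called, and CLEC10A went against the labels, at 22.3 ± 0.440 CPM in M1 and 1.43 ± 0.124 in M2. With MCHP, 7 of the 8 M1 markers were higher in M1 and 1 was lower. Of the 7 M2 markers, 5 were lower and 2 higher in M1 with MCHP. In M2 cells MCHP changed 4 of the 7 M2 markers, 1 upwards and 3 downwards, against 5.11% of all tested genes. It lowered 2 of the 8 M1 markers there, and in M1 cells it changed none of either list. Lists of T cell, B cell, adipocyte and epithelial markers summed to under 3 CPM in every library. The 4 fibroblast markers summed to 117 to 138 CPM in M1 and 25.3 to 34.3 CPM in M2, almost all of it COL1A1, with DCN at 0 in every library; its part in the results was not tested. The first M2 DMSO library stood apart. The SD of its genes' log2 deviations from the mean of its group's other libraries was 0.325. The same measure was 0.186 to 0.226 in the other 11 libraries. Calls that change without the first M2 DMSO library are named beside the results or under the processing alternatives.

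Promoter windows from RefSeq (GRCh38.p14), 250 bases before to 50 bases after the start, were found for 26 of the 29 genes; none was found for SQLE, FDFT1 and ACAT2. The windows were searched on both strands for 3 motifs of known promoter factors of the pathway: TCACNCCAC (an SREBP site), CCAAT (bound by NF-Y) and GGGCGG (bound by SP1). TCACNCCAC occurred in 1 of the 26 windows (3.85%) and in 1.13% of all 35116 windows of the table. CCAAT occurred in 20 of 26 (76.9%, against 34.6% of all windows) and GGGCGG in 24 of 26 (92.3%, against 44.95%). For the 26 genes 1 window per gene was kept, while the 35116 windows were not reduced in this way. The shares are therefore not built alike. The single TCACNCCAC match lay upstream of SREBF2, which encodes SREBP2. It is printed with 10 bases on each side, and the printed stretch lies at chr22:41832962-41832990 on the plus strand. All bases before the start in this window lie in annotated exons of a gene on either strand, so the printed stretch is exonic.
SREBF2: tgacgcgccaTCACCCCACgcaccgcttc
The next 3 stretches are the parts outside annotated exons of the windows of STARD4 and SOAT1, which were higher in M1 cells, and of NPC2, which was lower in M1 cells in DMSO. They lie at chr5:111512591-111512785 (minus strand, bases -250 to -56 from the start), chr1:179293547-179293713 (plus strand, -250 to -84) and chr14:74493609-74493719 (minus strand, -207 to -97). Capitals mark matches to CCAAT or GGGCGG, and ATTGG and CCGCCC are the same motifs on the opposite strand.
STARD4: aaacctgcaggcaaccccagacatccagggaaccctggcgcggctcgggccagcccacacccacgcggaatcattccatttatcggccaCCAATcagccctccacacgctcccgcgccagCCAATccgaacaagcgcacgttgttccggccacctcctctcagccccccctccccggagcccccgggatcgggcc
SOAT1: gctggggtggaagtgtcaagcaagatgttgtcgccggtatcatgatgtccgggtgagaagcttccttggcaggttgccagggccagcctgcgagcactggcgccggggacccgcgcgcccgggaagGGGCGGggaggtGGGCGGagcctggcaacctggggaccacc
NPC2: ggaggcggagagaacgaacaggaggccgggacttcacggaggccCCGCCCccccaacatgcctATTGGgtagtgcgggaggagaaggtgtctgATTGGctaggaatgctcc
The STARD4 stretch holds 2 CCAAT matches, the SOAT1 stretch holds 2 GGGCGG matches, and the NPC2 stretch holds both motifs. The full windows of all 3 genes hold both motifs. STARD4 has GGGCGG at -52, beyond its printed stretch, and SOAT1 has CCAAT from -85, cut by the end of its stretch. A match is a description of these letters and was not tested for binding.

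Compared per kilobase of gene model, the 29 genes spanned more than 2 orders of magnitude, as the plot of levels per kilobase shows. LIPA, which encodes lysosomal acid lipase, had the highest mean level over the 12 libraries at 269 CPM per kilobase, above 99.4% of the tested genes. SQLE, which encodes squalene epoxidase, followed at 217 CPM per kilobase (above 99.2%). INSIG1, the sterol-regulated anchor of SCAP, stood at 83.1, SREBF2 at 60.8 and NPC1, the cholesterol transporter of the lysosomal membrane, at 46.7 CPM per kilobase. The 24 other genes lay between 22.1 CPM per kilobase for HMGCS1, which makes HMG-CoA, and 1.07 for HSD17B7, a 3-keto reductase of the late sterol steps. The synthesis genes were therefore not expressed at 1 common level: SQLE exceeded the next step's gene, LSS for lanosterol synthase (8.82 CPM per kilobase), by far more than the spread between libraries, while MVK for mevalonate kinase (1.16) and CYP51A1 for lanosterol demethylase (1.73) were near the low end. The CYP51A1 level is uncertain, because 79.4% of its exonic bases also belong to an overlapping gene model on the same strand, and so is that of HSD17B7, whose transcribed pseudogene had 229 counts against 958 for the gene.

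**Figure D1:**
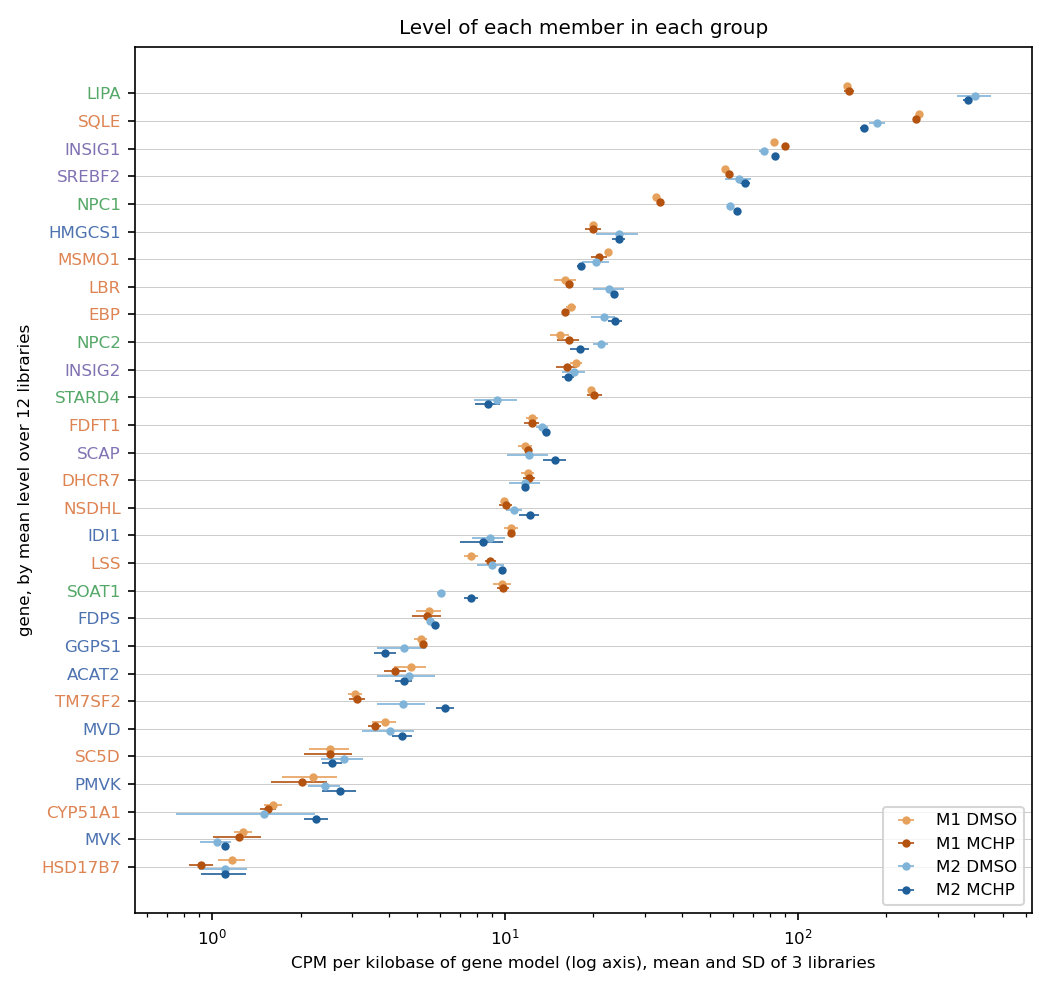
Mean level of each of the 29 genes in each group, in CPM per kilobase of gene model on a log axis, with bars for the SD of 3 libraries; genes run from the highest to the lowest mean over 12 libraries. LIPA and SQLE lead at 269 and 217 CPM per kilobase, and the M1 and M2 colours stand apart for LIPA, NPC1 and STARD4.

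Between M1 and M2 cells in DMSO, the genes of sterol release and storage differed most, and the synthesis genes moved in both directions. Of the 29 genes, 11 differed at an adjusted p under 0.05, 3 higher in M1 (SQLE, STARD4 and SOAT1) and 8 lower (HMGCS1, LSS, TM7SF2, LBR, EBP, LIPA, NPC1 and NPC2). Among all 15252 tested genes 42.5% differed, 21.6% higher and 20.9% lower in M1, so the share of the 29 (37.9%) was near the background. The median log2 difference was -0.05 for the 29 genes and -0.00 for all tested genes. The M1 and M2 libraries did not overlap for 12 of the 29 genes and for 7556 of all 15252 tested genes. By role, 5 of 5 genes of transfer, release and esterification differed, 5 of 12 from squalene to cholesterol, 1 of 8 of the mevalonate steps and 0 of 4 of SREBP2 regulation, where 2 had an unadjusted p under 0.05; DESeq2 and limma-voom also gave 11 genes in all. Without the first M2 DMSO library 17 of the 29 were called, 7 higher and 10 lower. In these bulk libraries, fewer cells of a kind and less RNA per cell cannot be told apart.

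The same contrast was made in the libraries with MCHP, which share no library with the DMSO contrast. There 15 of 29 genes differed, 6 higher in M1 (IDI1, GGPS1, SQLE, MSMO1, STARD4 and SOAT1) and 9 lower (HMGCS1, TM7SF2, LBR, NSDHL, EBP, SREBF2, SCAP, LIPA and NPC1). The background was 44.6% of all tested genes, 21.9% higher and 22.7% lower, against 51.7% of the 29. The median log2 difference of the 29 was -0.14. The M1 and M2 libraries with MCHP did not overlap for 20 of the 29 genes and for 8700 of all 15252 tested genes. In both contrasts 9 genes were called, and all 9 had the same direction in both, 3 higher and 6 lower in M1. LSS and NPC2 were called in DMSO only, IDI1, GGPS1, MSMO1, NSDHL, SREBF2 and SCAP with MCHP only, and 12 in neither. Whether M1 and M2 differed by another amount with MCHP than in DMSO is the same test as the difference of the MCHP responses given below, which no member passed.

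**Figure D2:**
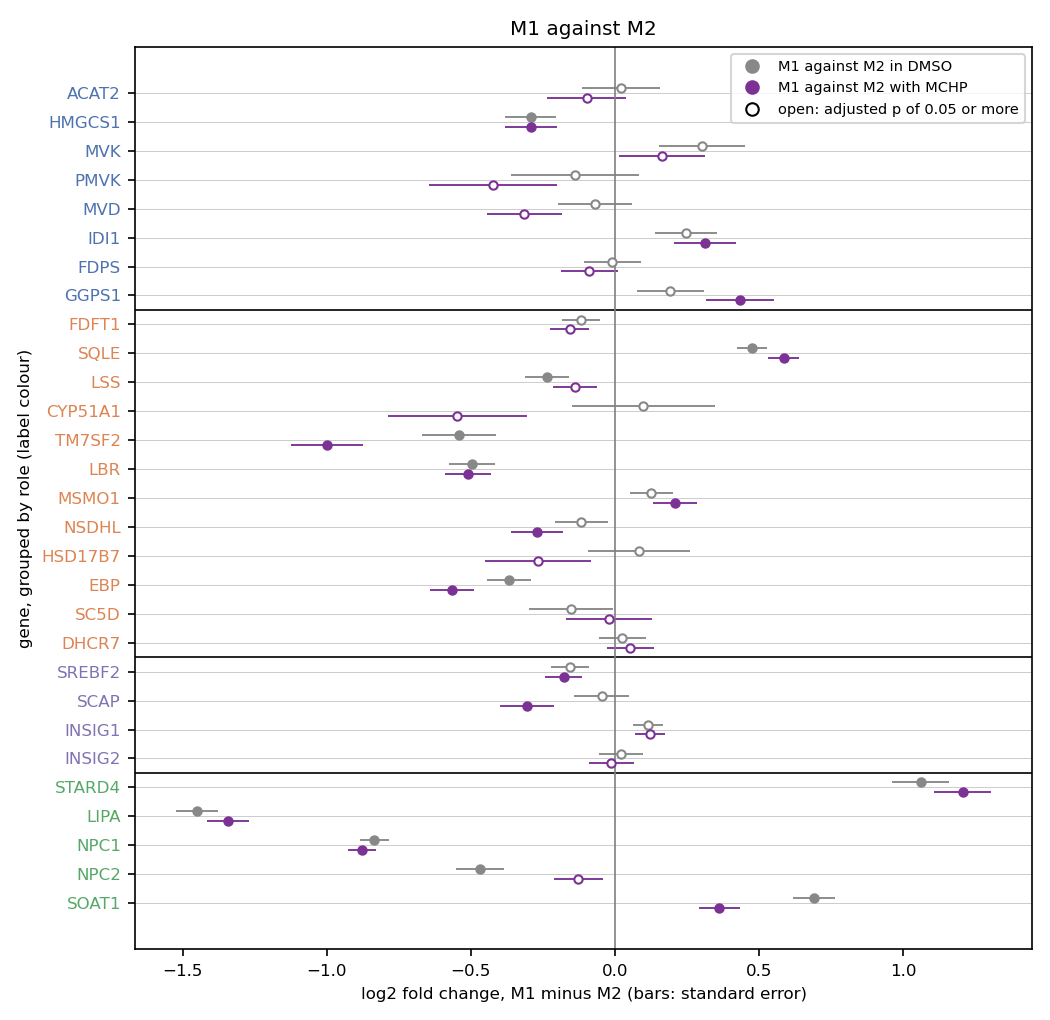
Log2 fold change of each gene between M1 and M2 (positive: higher in M1) in DMSO (grey) and with MCHP (purple), with standard errors; filled points have an adjusted p under 0.05, and the blocks from top to bottom are mevalonate steps, sterol steps, SREBP2 regulation and transfer, release and esterification. LIPA at -1.45 and STARD4 at 1.06 in DMSO are the extremes, and most synthesis genes lie within 0.6 of 0.

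LIPA splits the cholesteryl esters and triglycerides of lipoproteins in the lysosome (the table's gene model is on chromosome 10, 89213569 to 89414557, minus strand). Its level was 720.3, 719 and 729 CPM in the M1 DMSO libraries and 750.4, 747 and 702 CPM in M1 with MCHP. It was 2281, 1838 and 1808 CPM in the M2 DMSO libraries and 1889.9, 1912 and 1779 CPM in M2 with MCHP. Every M1 library was thus far below every M2 library, and the first M2 DMSO library was the highest of the 12. LIPA was 2.73-fold lower in M1 in DMSO (log2 -1.45, SE 0.07, adjusted p = 7.1e-12) and 2.54-fold lower with MCHP (-1.34, SE 0.07, adjusted p = 2.0e-11). The counting's strand setting is not given, and the LIPA model spans the interferon-induced genes IFIT1, IFIT2 and IFIT3 on the other strand. Those 3 genes were higher in M1 (437 CPM for IFIT3 against 59.5 in M2, in DMSO). LIPA shares 65 exonic bases (1.32%) with IFIT2, and the part of this overlap in the LIPA values was not tested.

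NPC1 and NPC2 pass the freed cholesterol out of the lysosome, NPC2 as the soluble carrier of the lumen and NPC1 as the transporter in the membrane. NPC1 was at 336, 330.2 and 325 CPM in M1 DMSO and 339.8, 339.9 and 343 CPM in M1 with MCHP, against 575, 594 and 601 CPM in M2 DMSO and 641, 609.7 and 630.0 CPM in M2 with MCHP. The M1 and M2 libraries did not overlap, and NPC1 was 1.78-fold lower in M1 in DMSO (log2 -0.84, SE 0.05, adjusted p = 7.8e-11) and 1.84-fold lower with MCHP (-0.88, SE 0.05). NPC1 shares 604 exonic bases (5.98%) with RMC1 on the other strand, whose log2 difference was -0.00 in DMSO. NPC2 was at 43.5, 44.6 and 38.6 CPM in M1 DMSO and 54.4, 60.8 and 59.9 CPM in M2 DMSO. It was lower in every M1 DMSO library than in any M2 DMSO library (1.38-fold, log2 -0.47, SE 0.08, adjusted p = 0.00017). The NPC2 gene shares 103 exonic bases (3.75%) with ISCA2 on the other strand, whose log2 difference was -0.16 in DMSO. With MCHP the NPC2 groups overlapped, with 49.5, 42.0 and 44.3 CPM in M1 and 48.6, 53.6 and 46.1 CPM in M2 (log2 -0.13, SE 0.08, 95% interval -0.32 to 0.07, adjusted p = 0.24).

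STARD4, a soluble carrier that moves cholesterol between membranes and is itself a target of SREBP2, went the other way. It was at 109.5, 110.4 and 114 CPM in M1 DMSO and 122, 111 and 110.2 CPM in M1 with MCHP, against 62.3, 53.8 and 44.1 CPM in M2 DMSO and 44.0, 52.5 and 52.3 CPM in M2 with MCHP. All M1 libraries were above all M2 libraries, 2.09-fold in DMSO (log2 1.06, SE 0.10, adjusted p = 4.7e-08) and 2.31-fold with MCHP (1.21, SE 0.10, adjusted p = 8.3e-09). Its antisense neighbour STARD4-AS1 was also higher in M1 (log2 0.60 in DMSO), and 124 exonic bases of STARD4 (2.18%) overlap with it. SOAT1, which esterifies cholesterol for storage, was at 73.6, 67.8 and 63.9 CPM in M1 DMSO and 69.6, 71.3 and 65.2 CPM in M1 with MCHP. In M2 it was at 40.9, 43.7 and 42.4 CPM in DMSO and 52.3, 51.4 and 56.8 CPM with MCHP, so the M1 libraries, the M2 DMSO libraries and the M2 MCHP libraries did not overlap. SOAT1 was 1.62-fold higher in M1 in DMSO (log2 0.69, SE 0.07, adjusted p = 2.4e-07) and 1.29-fold higher with MCHP (0.36, SE 0.07, adjusted p = 0.00040). In DMSO the 3 lysosomal release genes were thus lower in M1 and the carrier and the esterifying enzyme higher, as the plot of single libraries shows, while with MCHP this held for LIPA, NPC1, STARD4 and SOAT1 but was not called for NPC2. The called differences of these 5 genes between M1 and M2 stayed called, in the same direction, under each of the 19 alternative settings tried.

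**Figure D3:**
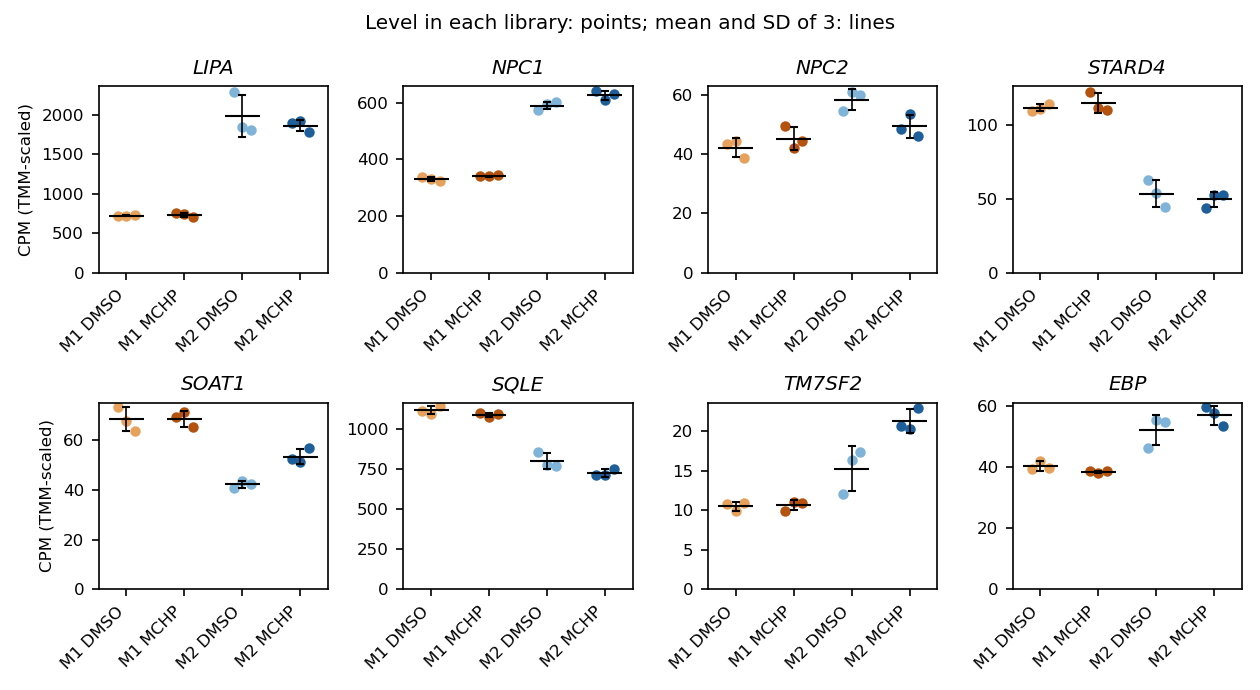
Level in CPM of 8 genes in each of the 12 libraries (points), with the mean and SD of 3 libraries per group, on axes that start at 0. LIPA and NPC1 are lower in all 6 M1 libraries, STARD4, SOAT1 and SQLE are higher in all 6, and SOAT1 and TM7SF2 are higher in M2 with MCHP than in M2 in DMSO.

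Of the 12 genes from squalene to cholesterol, SQLE was the only one called higher in M1 in DMSO, and 4 were called lower. SQLE catalyses the first oxygen-dependent step of the pathway. It was at 1109, 1094 and 1143 CPM in M1 DMSO and 1097, 1076 and 1091 CPM in M1 with MCHP, against 859, 777 and 771 CPM in M2 DMSO and 713, 711 and 752 CPM in M2 with MCHP. The M1 libraries were all above the M2 libraries, 1.39-fold in DMSO (log2 0.48, SE 0.05, adjusted p = 6.0e-07) and 1.501-fold with MCHP (0.59, SE 0.05, adjusted p = 3.7e-08). TM7SF2 and LBR both encode sterol C14 reductases, LBR also being a lamin-binding protein of the nuclear envelope. TM7SF2 was at 10.7, 9.84 and 10.9 CPM in M1 DMSO and 9.89, 11.04 and 10.95 CPM in M1 with MCHP, against 12.0, 16.4 and 17.3 CPM in M2 DMSO and 20.6, 20.2 and 22.9 CPM in M2 with MCHP. It was 1.46-fold lower in M1 in DMSO (log2 -0.54, SE 0.13, adjusted p = 0.0020) and 1.999-fold lower with MCHP (-0.999, SE 0.13, adjusted p = 2.6e-06), with no overlap of libraries in either contrast.

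LBR was at 91.7, 84.5 and 76.8 CPM in M1 DMSO and 85.5, 86.3 and 89.0 CPM in M1 with MCHP, against 134, 116 and 106 CPM in M2 DMSO and 123, 124 and 125 CPM in M2 with MCHP. Both C14 reductases were therefore lower in M1, LBR by 1.41-fold in DMSO (log2 -0.50, SE 0.08, adjusted p = 5.5e-05) and 1.42-fold with MCHP. EBP, the isomerase that shifts the sterol ring double bond, was at 39.5, 42.2 and 39.7 CPM in M1 DMSO and 38.8, 38.1 and 38.7 CPM in M1 with MCHP, against 46.4, 55.4 and 54.7 CPM in M2 DMSO and 59.7, 57.9 and 53.5 CPM in M2 with MCHP. It was 1.29-fold lower in M1 in DMSO (log2 -0.37, SE 0.08, adjusted p = 0.00077) and 1.48-fold lower with MCHP (-0.57, SE 0.08). NSDHL, which removes a C4 carboxyl group, was at 19.2, 20.0 and 20.0 CPM in M1 DMSO against 19.8, 22.3 and 21.9 CPM in M2 DMSO, which overlap. With MCHP it was at 20.0, 19.1 and 21.0 CPM in M1 and 25.5, 25.0 and 22.0 CPM in M2 and was called lower (log2 -0.27, SE 0.09, adjusted p = 0.020), a call lost under 5 of the 19 alternatives: no filter on low counts, or without the first or the second MCHP library of M1 or of M2.

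MSMO1, the C4 methyl oxidase, was called higher in M1 with MCHP (log2 0.21, SE 0.08, adjusted p = 0.033) but not in DMSO (0.13, SE 0.08, adjusted p = 0.19), where it was called without the first M2 DMSO library (0.21, adjusted p = 0.0057). The call with MCHP was lost under 6 alternatives: no filter, library size as the only scaling, or without the first or the third MCHP library of M1 or of M2. LSS was called lower in DMSO only (log2 -0.24, SE 0.08, adjusted p = 0.019), with overlapping groups, and lost the call when the second M1 DMSO library or the second or the third M2 DMSO library was left out, and when only the DMSO libraries were fitted. FDFT1 for squalene synthase, CYP51A1, HSD17B7, SC5D for the C5 desaturase and DHCR7, which makes cholesterol from 7-dehydrocholesterol, were not called in either contrast. Their log2 differences ran from -0.15 (SE 0.15, SC5D) to 0.10 (SE 0.25, CYP51A1) in DMSO. CYP51A1 varied widely among the M2 DMSO libraries, at 2.65, 8.003 and 5.47 CPM, and with MCHP its M1 libraries (5.95, 5.37 and 5.31 CPM) lay below those of M2 (8.85, 7.37 and 8.15 CPM; log2 -0.55, SE 0.24, adjusted p = 0.076).

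Among the 8 genes of acetyl-CoA condensation and the mevalonate steps, HMGCS1 was called in both contrasts. HMGCS1 was at 91.3, 95.5 and 93.7 CPM in M1 DMSO and 92.2, 88.6 and 100.3 CPM in M1 with MCHP, against 136, 104 and 104 CPM in M2 DMSO and 110.0, 121 and 113 CPM in M2 with MCHP. It was 1.22-fold lower in M1 in both contrasts (log2 -0.29, SE 0.09, adjusted p = 0.012 in each). Without the first M2 DMSO library, which was the high one, the DMSO value was -0.15 and still called (adjusted p = 0.030). The call with MCHP was lost without the second M1 MCHP library or the second M2 MCHP library (adjusted p = 0.061 and 0.059). IDI1, the isopentenyl diphosphate isomerase, was at 48.5, 44.3 and 43.7 CPM in M1 DMSO against 44.1, 36.5 and 34.5 CPM in M2 DMSO, with overlap and no call. With MCHP it was at 46.1, 45.3 and 44.8 CPM in M1 and 40.5, 39.5 and 29.5 CPM in M2, without overlap (log2 0.31, SE 0.11, adjusted p = 0.025), a call lost without any of the M1 MCHP libraries, without the third M2 MCHP library and with library size as the only scaling.

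GGPS1 makes geranylgeranyl diphosphate, the lipid of protein prenylation, and so draws mevalonate products away from sterols. It was at 20.0, 18.5 and 20.2 CPM in M1 DMSO and 20.9, 14.6 and 16.0 CPM in M2 DMSO, where the first M2 library lay with M1. With MCHP it was at 19.7, 20.2 and 20.1 CPM in M1 and 15.8, 13.4 and 15.3 CPM in M2 (1.35-fold higher in M1, log2 0.43, SE 0.12, adjusted p = 0.0060). GGPS1 shares 37.3% of its exonic bases with an overlapping gene on the same strand, so its level is uncertain. On the other strand it shares 138 exonic bases (3.62%) with ARID4B, which was higher in M1 in DMSO (log2 0.32). The part of either overlap in the GGPS1 values was not tested. Without the first M2 DMSO library, IDI1, GGPS1 and MVK, besides MSMO1 of the sterol steps, were also called higher in M1 in DMSO. ACAT2 for the cytosolic thiolase, PMVK and MVD for the later mevalonate steps and FDPS for farnesyl diphosphate synthase were called in neither contrast. Their log2 differences lay between -0.14 (SE 0.22, PMVK) and 0.02 (SE 0.14, ACAT2) in DMSO and between -0.42 (SE 0.22, PMVK) and -0.09 (SE 0.10, FDPS) with MCHP. Exons of ACAT2, MVK and FDPS overlap those of expressed genes on the other strand (397 bases with TCP1, 306 with MMAB and 693 with RUSC1-AS1), so their levels are uncertain without the strand setting.

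The 4 genes of SREBP2 regulation differed little between polarizations. SREBF2 ranged from 418 to 445 CPM over the 6 M1 libraries and from 419 to 519.7 CPM over the 6 M2 libraries, and was called 1.13-fold lower in M1 with MCHP (log2 -0.18, SE 0.06, adjusted p = 0.032), a call lost without any of the M1 MCHP libraries and without the first or the third M2 MCHP library. SCAP was at 77.2, 70.4 and 77.5 CPM in M1 DMSO and 63.3, 83.4 and 85.5 CPM in M2 DMSO, so that the first M2 library lay below and the others above M1. With MCHP it was at 78.9, 77.3 and 74.0 CPM in M1 and 89.9, 90.1 and 105 CPM in M2, without overlap (1.24-fold lower in M1, log2 -0.31, SE 0.09, adjusted p = 0.014), and the call was lost without the third library of M1 with MCHP or of M2 with MCHP. Without the first M2 DMSO library, SREBF2 (-0.24) and SCAP (-0.17) were also called lower in M1 in DMSO (adjusted p = 3.0e-05 and 0.030). SREBF2 shares 280 exonic bases (3.71%) with SREBF2-AS1 on the other strand, which was higher in M1 in DMSO (log2 0.72). INSIG1 had 301 ± 4.74 CPM in M1 DMSO, 330.0 ± 9.28 in M1 with MCHP, 278 ± 9.51 in M2 DMSO and 303 ± 6.98 in M2 with MCHP (SD, n = 3). It was slightly higher in M1 than in M2 and slightly higher with MCHP than in DMSO, with no overlap of libraries in any of these 4 contrasts. None of them was called (log2 0.11 to 0.13, SE 0.05, smallest adjusted p = 0.068), although DESeq2 called the one between M1 and M2 with MCHP (adjusted p = 0.044). INSIG2 was at 64.1 to 68.9 CPM in the 4 group means, with log2 differences of 0.02 and -0.01 (SE 0.08) between M1 and M2.

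**Figure D4:**
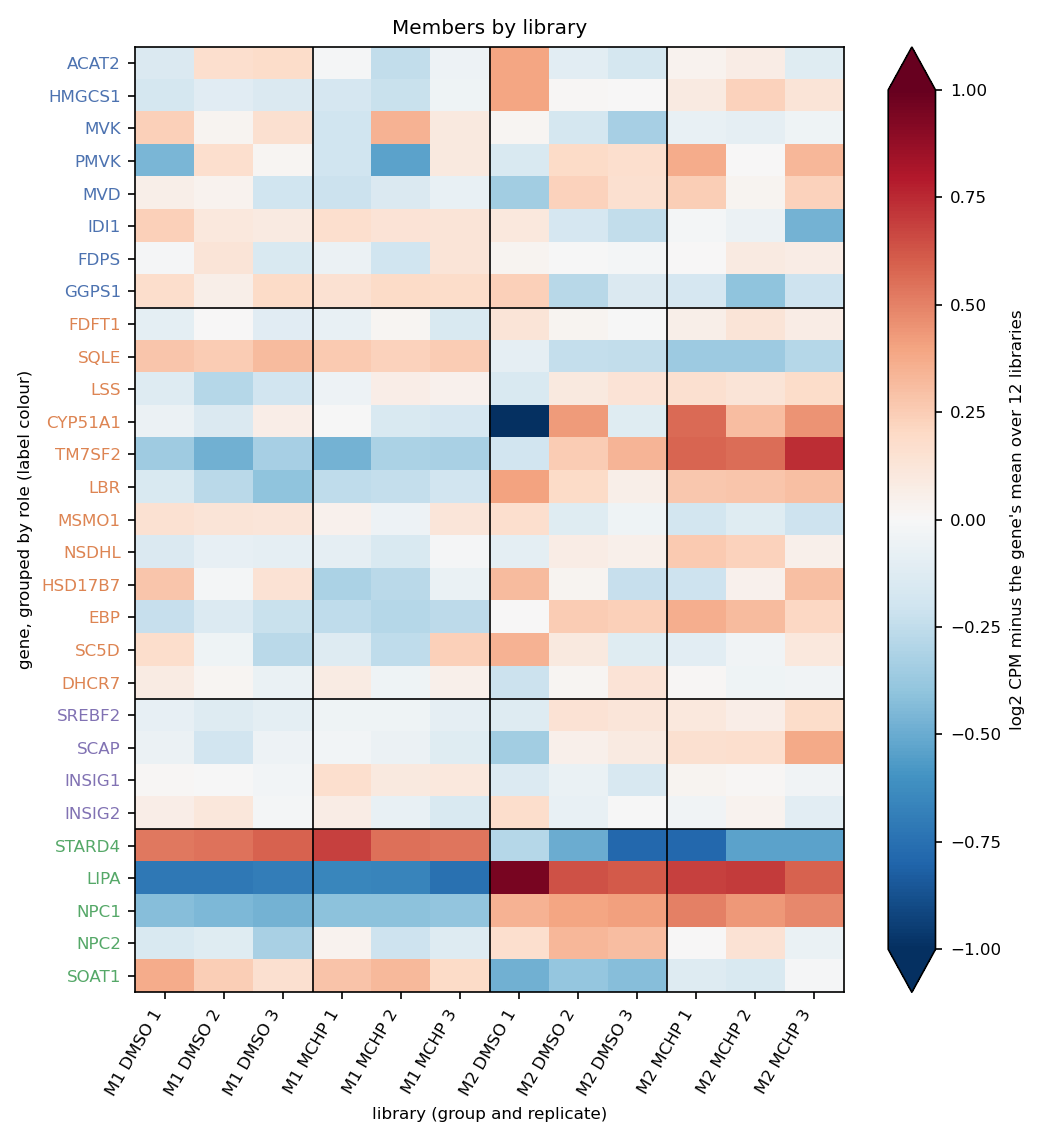
Log2 CPM of each gene in each library minus the gene's mean over 12 libraries (colour scale from -1 to 1), with libraries by group and genes by role. LIPA and NPC1 are below their mean in all 6 M1 libraries and STARD4 is above, and the first M2 DMSO library differs from the other M2 libraries for CYP51A1, SCAP and TM7SF2.

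With MCHP in M2 cells, 2 of the 29 genes changed, both upwards, against 5.11% of all tested genes changed and 2.92% raised. The MCHP and DMSO libraries of M2 did not overlap for 7 of the 29 genes and for 3165 of all 15252 tested genes. SOAT1 rose 1.26-fold (log2 0.34, SE 0.07, adjusted p = 0.010), with every MCHP library above every DMSO library. TM7SF2 rose 1.39-fold (log2 0.47, SE 0.12, adjusted p = 0.027), also without overlap; its first DMSO library was low, and without that library the value was 0.33 (adjusted p = 0.031). Both calls were lost when the fit held only the 6 M2 libraries (adjusted p = 0.11 and 0.17) and without the third M2 MCHP library (0.068 and 0.15), and that of TM7SF2 also without the first M2 MCHP library (0.074). None of the 29 was called lower, where 8 had an unadjusted p under 0.05 in either direction and DESeq2 and limma-voom gave 2 calls each, both higher. NPC2 was at 54.4, 60.8 and 59.9 CPM in M2 DMSO and at 48.6, 53.6 and 46.1 CPM with MCHP (log2 -0.24, SE 0.08, adjusted p = 0.11), and it was called lower without the first M2 DMSO library (-0.29, adjusted p = 0.012). SCAP was at 63.3, 83.4 and 85.5 CPM in DMSO and at 89.9, 90.1 and 105 CPM with MCHP (log2 0.29, SE 0.09, adjusted p = 0.086), and SQLE had a negative value that was not called (log2 -0.15, SE 0.05, adjusted p = 0.13). This contrast shares the M2 DMSO libraries with that between M1 and M2 in DMSO.

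In M1 cells no member was called with MCHP, and 0.0852% of all tested genes were. The MCHP and DMSO libraries of M1 did not overlap for 6 of the 29 genes and for 2430 of all 15252 tested genes. An unadjusted p under 0.05 was found for 2 members, INSIG1 (log2 0.13, SE 0.05, adjusted p = 0.83) and LSS (0.22, SE 0.08, adjusted p = 0.65), and DESeq2 and limma-voom called none. LSS was at 58.2, 52.0 and 55.5 CPM in M1 DMSO and at 61.2, 66.5 and 65.4 CPM with MCHP, without overlap, and both genes were called when only the 6 M1 libraries were fitted (adjusted p = 0.039 and 0.033). The log2 changes of the 29 ran from -0.35 (HSD17B7) to 0.22 (LSS). The difference of the 2 responses (M1 minus M2) was called for none of the 29 genes and for 0.164% of all tested genes; 3 of the 29 had an unadjusted p under 0.05, and DESeq2 and limma-voom called none. These 3 were SOAT1 (-0.33, SE 0.10, 95% interval -0.56 to -0.10, adjusted p = 0.31), TM7SF2 (-0.46, SE 0.18, -0.87 to -0.04, adjusted p = 0.45) and NPC2 (0.34, SE 0.12, 0.07 to 0.62, adjusted p = 0.38). NPC2 was called without the first M2 DMSO library (0.39, adjusted p = 0.039). The rise of SOAT1 and TM7SF2 in M2 was therefore not shown to differ from the response in M1.

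**Figure D5:**
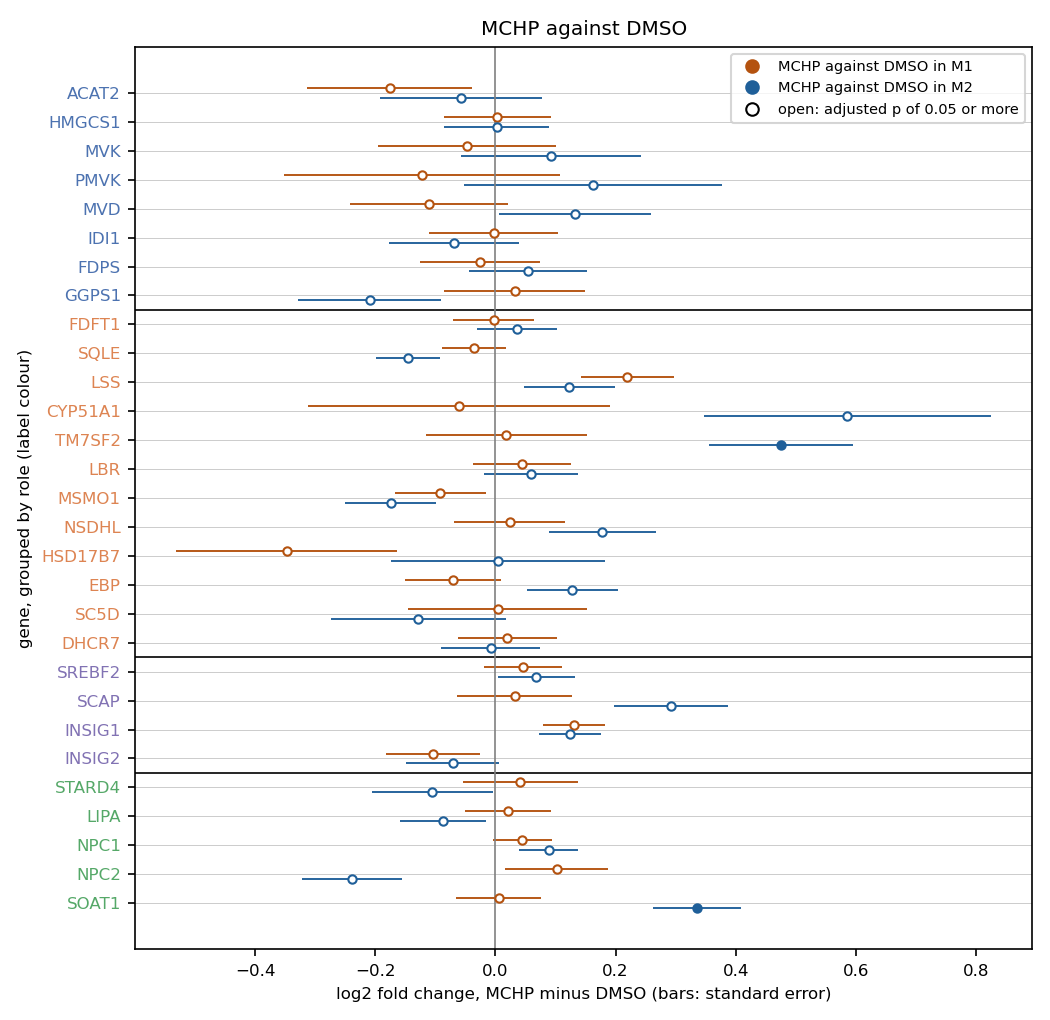
Log2 fold change of each gene with MCHP against DMSO in M1 (brown) and in M2 (blue), with standard errors; filled points have an adjusted p under 0.05. Only SOAT1 (0.34) and TM7SF2 (0.47) in M2 are filled, and the widest bars belong to the weakly expressed CYP51A1 and PMVK.

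A list of 56 other genes of the pathway's surroundings was examined beside the 29, and 51 of them could be tested. Between M1 and M2 in DMSO, 28 of the 51 were called (54.9%, against 42.5% of all tested genes), 10 higher and 18 lower in M1 (backgrounds 21.6% and 20.9%). All 7 lipoprotein receptors and adaptors had a negative value and 6 were called lower, among them LRP8, the apolipoprotein E receptor 2 (35.2 ± 0.344 CPM in M1 and 119 ± 12.3 in M2, SD, n = 3; log2 -1.75, SE 0.08), and SORL1, a sorting receptor (0.364 ± 0.189 and 8.76 ± 0.935 CPM; -4.57, SE 0.27). SORL1 was barely detected in M1 and passed the filter on low counts through its M2 libraries, so the size of its difference is uncertain. With MCHP all 7 receptors and adaptors were called lower in M1, where 22.7% of all tested genes were. Of 15 sterol carriers, 7 were higher and 2 lower in DMSO. GRAMD1B, which carries plasma membrane cholesterol to the endoplasmic reticulum, was higher (29.9 ± 1.21 against 9.07 ± 1.79 CPM; log2 1.72, SE 0.12) and so was OSBPL8 (0.68, SE 0.05), while OSBPL1A (-1.75, SE 0.11) and OSBPL9 (-0.44, SE 0.06), 2 other oxysterol-binding protein relatives, were lower.

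Of 12 genes for SREBP proteases and ubiquitin ligases or anchors of the INSIG system, 4 were called lower in DMSO (33.3%, with 42.5% of all tested genes called) and none higher, including the ligases RNF145 (log2 -0.42, SE 0.08) and RNF139 (-0.40, SE 0.08). Of 13 genes of the branches to dolichol, ubiquinone and prenylated proteins, 2 were higher and 3 lower (38.5% called). RABGGTA, a subunit of the Rab prenyltransferase, was higher (0.45, SE 0.08) and so was PGGT1B, which attaches geranylgeranyl groups to proteins, (0.32, SE 0.09; not called with library size as the only scaling). CHML, a Rab escort protein (-0.64, SE 0.10), and PDSS1 of ubiquinone side chain synthesis (-1.14, SE 0.25) were lower. In the list of ester hydrolysis and oxysterol enzymes 4 of 9 could be tested and all 4 were called, 1 higher and 3 lower. The higher one was the hydrolase CES1 (0.37, SE 0.05), whose reads may be shared with similar family members; NCEH1, a neutral cholesteryl ester hydrolase (-0.35, SE 0.06), and ACAT1, the mitochondrial thiolase that takes no part in ester hydrolysis (-0.58, SE 0.13), were among the lower.

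With MCHP in M2 cells, 5 of the 51 changed, 4 upwards and 1 downwards, with 5.11% of all tested genes changed and 2.92% raised. VLDLR, a receptor of triglyceride-rich lipoproteins, rose from 177, 167 and 171 CPM to 219.9, 217 and 218 CPM (log2 0.35, SE 0.06, adjusted p = 0.0012). NCEH1 rose from 107, 100.1 and 103 CPM to 126, 123 and 140.3 CPM (0.33, SE 0.06, adjusted p = 0.0042), a call lost when only M2 libraries were fitted. SORL1 fell by 0.92 on the log2 scale (SE 0.18, adjusted p = 0.0044), from 9.83, 8.36 and 8.09 CPM to 3.94, 4.59 and 5.34 CPM. OSBPL11, an oxysterol-binding protein relative (0.24, SE 0.06, adjusted p = 0.030), also rose, but lost the call under 8 of the 19 alternatives. None of the 51 was called with MCHP in M1, and the difference of the responses was called for none of them. SORL1, weakly expressed in M1, had a similar value there (log2 -0.99) that was not called. Its fall was therefore not shown to be limited to M2.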

How the data were processed

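The authors deposited 1 table of raw counts per gene (whole numbers, not normalized, with gene model lengths and hg38 positions per the file headers) for 12 poly-A RNA libraries, 3 per group. Per the submitters' processing notes, DESeq2 1.20.0, featureCounts 1.5.0-p3, StringTie 1.3.3b, HISAT2 2.0.5 and fastp were among the tools, with their roles not stated; the strand setting is not given in the sources used here. The positions of all 29 genes equal those of GENCODE release 29.

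The counts were tested with edgeR 4.0.16 under R 4.3.3. Low genes were removed with filterByExpr (minimum count 10), TMM factors scaled the libraries, and 1 model held all 12 libraries and a mean for each group (8 residual degrees of freedom). The quasi-likelihood F-test (two-sided) was adjusted by Benjamini-Hochberg over 15252 genes, with a threshold of 0.05. Standard errors come from the F statistic. The 5 contrasts were M1 against M2 in DMSO and with MCHP, MCHP against DMSO in M2 and in M1, and the difference of the latter. The code was tested on simulated data. DESeq2 1.42.0, limma 3.58.1 and other settings were tried as alternatives.

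The members and lists were chosen with earlier results of these data known. Values in every library are given for the 14 members with the smallest adjusted p among the 16 called in some contrast without overlap of groups. Other members whose libraries are given (CYP51A1, LSS) were chosen after their values were seen. Of the related genes, up to 2 per list and direction between M1 and M2 in DMSO are named, and those called for MCHP, except 1 that is not reported here. Promoters come from RefSeq (GRCh38.p14), with 1 window kept per member and all 35116 windows kept for the comparison.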

Additional observations from a re-analysis of the deposited data

How the results depend on the processing

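Each result was recomputed under 19 alternatives (18 for the difference of the responses), and no call was reversed in direction. Values without a call could change sign, as for CYP51A1 between M1 and M2 in DMSO (log2 -0.22 to 0.50). Scaled by library size alone, the median of all genes moved to -0.13 between M1 and M2 in DMSO and to -0.09 with MCHP, and 14 members were called lower in M1 with MCHP; the levels per kilobase moved by -1.43% to 1.73% and kept their order. Without a filter on low counts, 4 members were called for MCHP in M2, all 4 higher, and 76 genes of all were called in M1 and 170 for the difference. DESeq2 called 55 genes in M1 and 98 for the difference. With only the compared libraries, 0 members and 177 genes were called in M2 (0 members higher), and 2 members, both 2 higher, and 287 genes in M1. The cause of these changes was not tested.

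The replicate numbers are not said to pair libraries, and correlations of deviations between same-numbered libraries ran from -0.07 to 0.07. With the replicate number as a block, 5 genes of all were called in M1; the members called were 12 and 15 between M1 and M2 in DMSO and with MCHP, and 2, 0 and 0 in the other contrasts.

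Leaving out 1 library at a time gave 10 to 17 members called between M1 and M2 in DMSO (3 to 7 higher, 7 to 10 lower) and 11 to 20 with MCHP (4 to 7 higher, 7 to 13 lower). It gave 0 to 3 members for MCHP in M2 (0 to 3 higher, 0 to 1 lower) and 0 to 1 for the difference (0 to 1 higher). Over all genes, 5597 to 7199 were called between M1 and M2 in DMSO, 5903 to 7976 with MCHP, 386 to 1747 for MCHP in M2, 1 to 160 in M1 and 6 to 385 for the difference. The highest of these counts came without the first M2 DMSO library, except for MCHP in M2, where 3 members were called whichever M2 DMSO library was left out and the count of 3 higher came without the second or the third. Without the first M2 DMSO library MVD, FDFT1, LSS, CYP51A1 and INSIG1 were also called between M1 and M2 with MCHP. CYP51A1 was called higher with MCHP in M2 without the second M2 DMSO library, and SCAP without the third.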
